A study of Mus musculus with 28 samples.

Results

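The metallothionein, thioredoxin and glutathione genes described here are a set of 10 mouse genes that buffer metals and peroxides: Mt1, Mt2, Txn1, Txnrd1, Prdx1, Srxn1, Gclm, Gclc, Gpx1 and Gpx4. They were taken from the deposited expression table by gene symbol. Of the 10, 9 had a row among the 13103 genes of the table, and all 9 were among the 12512 genes tested. Prdx1 is not analysed here. The data are RNA-seq of regulatory T cells (Tregs) from Foxp3-GFP mice, in which green fluorescent protein marks cells that express the Treg transcription factor Foxp3. B16 melanoma cells had been placed in the skin, and the tumor and the spleen were taken 7 to 10 days later. GFP-positive cells, also stained for CD45, CD3 and CD4, were sorted by surface OX40, a TNF receptor family member that costimulates T cells, into a high and a low gate. This gave 4 groups, tumor OX40plus and tumor OX40minus (4 mice each) and spleen OX40plus and spleen OX40minus (3 mice each), all from tumor-bearing mice of the same strain, with no tumor-free animal among the samples. The labels give no age.

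Metallothioneins are small proteins in which cysteines hold zinc and copper ions, and their genes are switched on by zinc through the metal-sensing transcription factor MTF1. Thioredoxin reduces oxidised proteins and is itself restored by thioredoxin reductase with NADPH, while peroxiredoxins consume peroxide and sulfiredoxin repairs peroxiredoxins that have been over-oxidised. Glutathione, the most abundant small thiol of cells, is made in a pathway whose rate-limiting enzyme is glutamate-cysteine ligase, and glutathione peroxidases use it to reduce peroxides. Many of these genes are targets of the transcription factor NRF2. In mouse T cells, metallothioneins have been linked to dysfunction of tumor-infiltrating CD8 T cells, and Gclc and Gpx4 to the function and survival of Tregs.

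Each sample is the mean of 2 libraries from the same mouse and gate, and holds 22.4 M to 29.6 M estimated counts, so that 3 counts correspond to 0.104 to 0.13 CPM, a count relative to the total of its library. All 8 Treg and T cell markers were detected in every sample, with Foxp3 between 23.3 and 130 CPM and a summed marker level from 3720 CPM in the lowest spleen sample to 11000 CPM in the highest tumor sample. Genes of other cell types were present too. The summed level of 13 macrophage and monocyte genes was 1190 to 1540 CPM in spleen OX40minus, 185 to 284 in spleen OX40plus, 1860 to 2040 in tumor OX40minus and 872 to 1060 in tumor OX40plus samples. In tumors 1 gene of the list, Ccr2, a chemokine receptor that T cells also express, held most of that sum, at 1550 to 1740 CPM in OX40minus and 786 to 980 in OX40plus samples. Without Ccr2, which was left out after its values were seen, the other 12 genes summed to 1070 to 1390 CPM in spleen OX40minus, 106 to 232 in spleen OX40plus, 244 to 383 in tumor OX40minus and 78.9 to 86.2 in tumor OX40plus samples. Of the 13 genes, 12 were above 0 in every sample of either spleen group and 11 in every sample of either tumor group, with Adgre1 at 0 in at least 1 sample of each group and Slc40a1 in at least 1 sample of each tumor group. Melanoma genes (6 of the 7 listed had a row) summed to 69.3 to 184 CPM in tumor samples and 12.6 to 22.4 in spleens. In tumor OX40minus samples 5 of the 6 were above 0 throughout, Tyrp1 for example at 33.7 to 47.1 CPM, and Sox10 was at 0 in 1 of 4, while in tumor OX40plus samples all 6 were above 0. B cell genes (4 of 6) summed to 380 to 568 CPM in spleens and 1.23 to 5.77 in tumors. Dendritic cell genes (5 of 6) summed to 14 to 48.5 CPM in spleens and 36.8 to 190 in tumors, and erythroid genes (3 of 6) to 4.47 to 16.0 CPM in spleens and 34.9 to 166 in tumors. The sample of mouse 4 in the tumor OX40plus group stood apart, with 0.906% of its counts in mitochondrial genes against 0.538% to 0.649% in the other 7 tumor samples and 1.13% to 1.52% in spleens, so the members' differences that use it are also given without it. In bulk samples a lower share of a cell type and less RNA of a gene per cell cannot be told apart.

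The metallothionein genes were the part of the set that differed most. Mt1 (chromosome 8, 94179082 to 94180327, plus strand, GRCm38) and Mt2 (chromosome 8, 94172664 to 94173568, plus strand) lie next to each other, with RefSeq start sites 6471 bases apart. Their coding sequences, joined from the exons of the GENCODE transcripts Mt1-201 and Mt2-201, are 186 bases long each, and 148 of the positions (79.6%) are identical. They are shown because they display the metal-binding residues: capitals mark the cysteine codons, of which each gene has 20, and all 20 stand at the same positions. The neighbouring paralog Mt3, which is best known from brain, also has 20 cysteine codons, in 207 bases. The coding parts span chr8:94179311-94180193 (Mt1), chr8:94172848-94173427 (Mt2) and chr8:94152800-94154010 (Mt3), introns included.
Mt1: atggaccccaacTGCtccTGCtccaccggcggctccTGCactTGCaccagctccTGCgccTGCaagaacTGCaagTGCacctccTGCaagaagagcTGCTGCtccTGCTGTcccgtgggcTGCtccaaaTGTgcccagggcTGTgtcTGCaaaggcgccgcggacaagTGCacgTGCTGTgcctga
Mt2: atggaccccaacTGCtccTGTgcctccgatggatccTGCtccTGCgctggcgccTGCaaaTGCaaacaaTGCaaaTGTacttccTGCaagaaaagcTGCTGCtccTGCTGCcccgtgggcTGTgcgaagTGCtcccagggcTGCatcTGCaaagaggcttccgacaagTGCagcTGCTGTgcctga
Mt3: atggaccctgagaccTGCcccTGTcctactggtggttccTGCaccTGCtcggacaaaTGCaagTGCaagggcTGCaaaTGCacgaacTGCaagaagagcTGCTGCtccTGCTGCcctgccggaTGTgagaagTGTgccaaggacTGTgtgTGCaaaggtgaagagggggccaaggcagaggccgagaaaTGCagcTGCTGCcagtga

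The level of Mt1 in spleen OX40minus Tregs was 3.70, 4.97 and 3.01 CPM in mice 1 to 3, and in spleen OX40plus Tregs 5.42, 4.41 and 6.43 CPM. In tumor OX40minus Tregs it was 73.3, 105, 77.0 and 85.2 CPM in mice 1 to 4, and in tumor OX40plus Tregs 211, 220.2, 251 and 335 CPM. The tumor samples thus stood far above every spleen sample, and within the tumor no OX40minus sample reached an OX40plus one, while the spleen gates overlapped. Mt2 followed the same order at a lower level. Its values were 0.5005, 1.02 and 0.617 CPM in spleen OX40minus, 2.45, 1.47 and 1.65 in spleen OX40plus, 13.5, 19.9, 15.1 and 15.5 in tumor OX40minus, and 43.3, 48.1, 52.0 and 70.3 in tumor OX40plus Tregs. None of the 4 groups of Mt2 overlapped another. In spleens Mt2 rested on few reads, with 13 to 25 estimated counts per OX40minus sample and 35 to 62 per OX40plus sample.

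**Figure D1:**
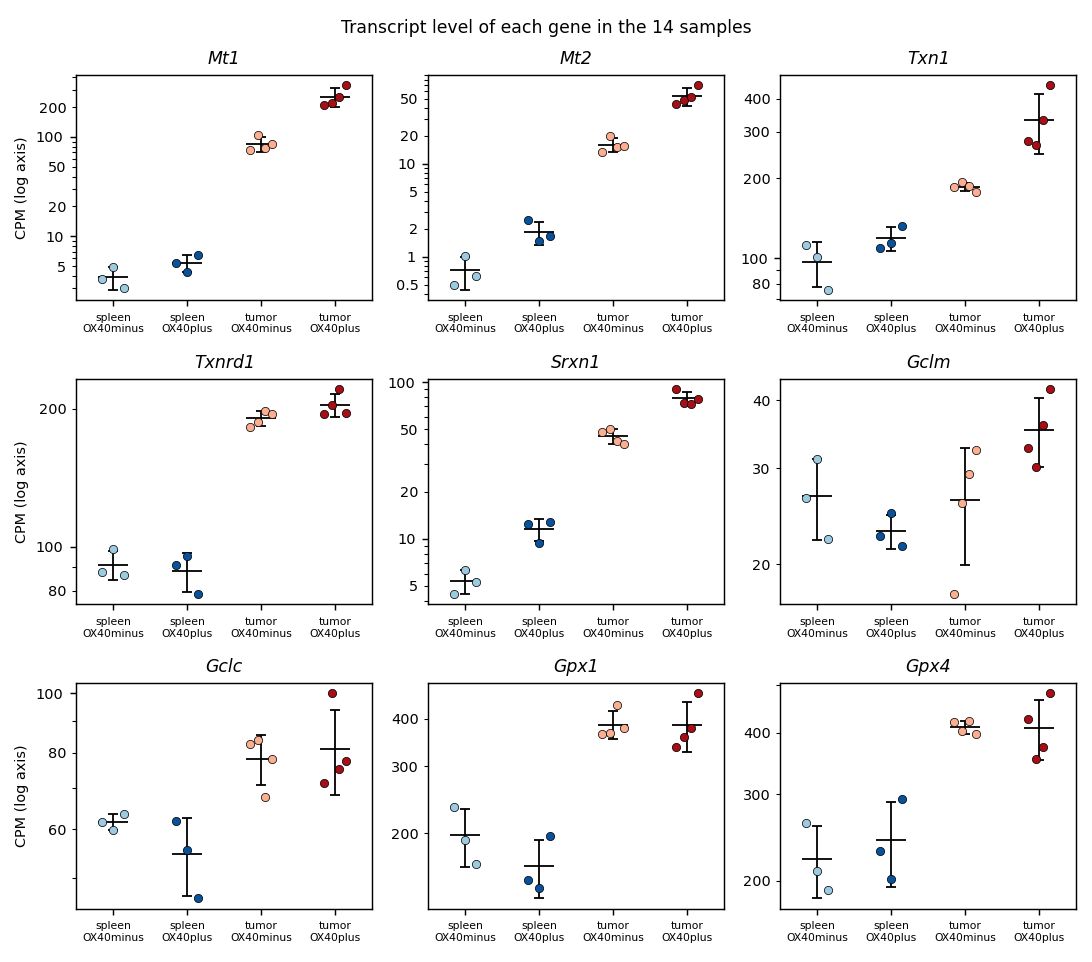
Level of each of the 9 genes in CPM (vertical log axes, which differ between panels) in the 14 samples, by tissue and OX40 gate. Points are mice, and the line and bars are the group mean and SD. Mt1 rises from 3.01 to 6.43 CPM in spleens to 73.3 to 335 CPM in tumors, whereas Gclm stays between 17.6 and 42.0 CPM in all 4 groups.

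Every test below is the moderated test of limma in a single fit of all 14 samples, with Benjamini-Hochberg adjustment over the 12512 genes tested and a gene called at an adjusted p under 0.05. Differences are given as log2 of CPM (0.5 having been added to every count) with their standard error (SE). The 4 comparisons of groups share samples with each other, so they are not independent. Nothing in the labels says more of the mice than their numbers, and p-values measure the spread between these samples.

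Of the 9 members, Mt1, Mt2, Txn1 and Srxn1 (4 of 9) were called higher and 0 lower with OX40 in the tumor, where 18.6% of all genes tested were called higher and 20.0% lower (38.5% either way). The same 4 were higher without overlap of the gates, as were 16.7% of all genes. The member median was 0.45 on the log2 scale beside -0.07 for all genes. In the spleen Mt2 and Srxn1 (2 of 9) were called higher and 0 lower, beside 4.39% of all genes called higher and 3.60% lower (7.98% either way) and 17.4% higher without overlap, with medians of 0.12 and 0.01. Between tissues 9 of 9 were called higher in tumor OX40plus Tregs, where 30.3% of all genes were called higher and 34.2% lower (64.5% either way) and 29.7% were higher without overlap. In tumor OX40minus Tregs 8 of 9 were called higher, where 29.7% of all genes were called higher and 29.3% lower (59.0% either way) and 31.4% were higher without overlap. The member medians were 1.24 and 0.98, and those of all genes -0.13 and -0.03. The interaction, the OX40 difference in the tumor minus that in the spleen, was called for 1 of 9 members, Mt1, beside 4.53% of all genes called higher and 6.38% lower (10.9% either way). Without mouse 4 of tumor OX40plus these counts were 4, 2, 9, 8 and 1. Scaling by library size alone moved the median of all genes between tissues in OX40plus Tregs by -0.10, and all 9 members were still called there.

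Within the tumor, OX40plus Tregs had more of both metallothionein transcripts than OX40minus Tregs. Mt1 rose by 1.57 ± 0.18 on the log2 scale (SE, adjusted p = 8.48e-06), which is 2.96-fold, and was higher in 4 of 4 mice. Mt2 rose by 1.73 ± 0.26 (adjusted p = 7.78e-05), which is 3.32-fold, also in 4 of 4 mice. Without mouse 4 of the OX40plus group the differences were 1.43 ± 0.18 for Mt1 and 1.59 ± 0.27 for Mt2. In the spleen Mt2 rose by 1.39 ± 0.30 (adjusted p = 0.00719), higher in 3 of 3 mice, and Mt1 differed by 0.49 ± 0.21 (adjusted p = 0.23), higher in 2 of 3 mice. The spleen call of Mt2 was lost with limma-voom (adjusted p = 0.318) and with a pseudocount of 1 CPM (adjusted p = 0.0533).

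Between tissues the metallothioneins differed by far more. In OX40plus Tregs Mt1 was 5.54 ± 0.20 higher in the tumor than in the spleen on the log2 scale (adjusted p = 2.21e-12), or 46.5-fold, and Mt2 was 4.83 ± 0.28 higher (adjusted p = 4.36e-10), or 28.5-fold. Ranked by this difference from the top, they held places 21 and 41 of 12512 genes. The differences were 5.40 ± 0.19 and 4.69 ± 0.29 without mouse 4 of tumor OX40plus. In OX40minus Tregs Mt1 was 4.46 ± 0.20 higher (adjusted p = 2.65e-11) and Mt2 4.49 ± 0.28 higher (adjusted p = 1.39e-09), folds of 22.0 and 22.4 and places 67 and 65. The OX40 difference of Mt1 was larger in the tumor than in the spleen by 1.08 ± 0.28 (interaction, adjusted p = 0.0216). Without mouse 4 of tumor OX40plus it was 0.94 ± 0.26 (adjusted p = 0.0333). The call was lost with limma-voom (adjusted p = 0.203), with the mouse within tissue as a replicate block (0.0566), without mouse 2 of spleen OX40minus (0.0672) and without mouse 2 of spleen OX40plus (0.0581). For Mt2 the interaction was 0.35 ± 0.39 (adjusted p = 0.638), and 0.21 ± 0.40 without that mouse.

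Genes of other cell types also differed between these groups. Of the 13 macrophage genes, 0 were called higher and 11 lower with OX40 in the tumor (median -1.91) and 0 higher and 12 lower in the spleen (median -3.22). Between tissues 3 were higher and 8 lower in the tumor in OX40plus (median -1.26) and 1 higher and 10 lower in OX40minus Tregs (median -2.09). The summed level of the list, most of it Ccr2 in tumors, was higher in the tumor than in the spleen in both gates, as were Mt1 and Mt2, and without Ccr2 the sum was lower there. The sums of melanoma, dendritic and erythroid genes were higher in the tumor in both gates, as were the metallothioneins. Single genes did not all follow. In OX40plus Tregs 5 of 6 melanoma genes (median 3.12), 2 of 5 dendritic genes (median 0.89) and 2 of 3 erythroid genes (median 2.85) were called higher in the tumor and 0 lower. In OX40minus Tregs 5 of 6, 3 of 5 and 3 of 3 were called higher, and 1 melanoma gene, Mitf, lower. Of all genes 30.3% were called higher and 34.2% lower in OX40plus, and 29.7% and 29.3% in OX40minus Tregs. The dendritic markers differed in direction. Cd209a was at 0.0385 to 0.165 CPM in spleen OX40minus and 75.6 to 126 in tumor OX40minus samples. In OX40plus samples it was at 0.042 to 0.119 CPM in spleens and 24.9 to 43.1 in tumors. Itgax was lower in tumors, at 36.7 to 42.9 CPM in spleen OX40minus and 8.82 to 11.8 in tumor OX40minus samples. In OX40plus samples Itgax was at 8.77 to 11.9 CPM in spleens and 0.0379 to 8.34 in tumors, and neither difference was called. Clec9a overlapped between tissues in both gates. The sum of the proliferation genes (6 of the 7 listed had a row) ran in the same direction as the metallothioneins between gates and between tissues. It was 613 to 741 CPM in spleen OX40minus, 932 to 1490 in spleen OX40plus, 1160 to 1440 in tumor OX40minus and 2680 to 2890 in tumor OX40plus samples. Between tissues 5 of the 6 were called higher in the tumor in either gate. Mki67 was the exception and was called lower in OX40minus Tregs, at 169 to 260 CPM in spleen and 125 to 187 in tumor samples. Ribosomal protein genes took 5.21% to 7.64% of counts in spleens and 1.63% to 3.03% in tumors. The part of these differences in the metallothionein levels was not tested. Of the 31-base words in Mt2 transcripts, 58.1% also occur in transcripts of other annotated genes, nearly all of them in Gm45774, an antisense gene. Whether counting used strand is not given in the sources used here, so the level of Mt2 is uncertain, while no word of Mt1, or of Mt3, occurs in another gene.

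In the thioredoxin arm Txn1 and Srxn1 rose with OX40 in the tumor, whereas Txnrd1 was called between tissues and not between gates. Txn1 (chromosome 4, 57943373 to 57956411, minus strand) encodes cytosolic thioredoxin. Its level was 112.5, 101 and 75.9 CPM in spleen OX40minus, 109, 114 and 133 in spleen OX40plus, 185, 194, 187 and 178 in tumor OX40minus, and 278, 267, 333 and 452 in tumor OX40plus Tregs. The tumor gates did not overlap, mouse 4 of OX40plus was the highest sample, and the spleen gates overlapped. Txn1 rose by 0.81 ± 0.15 with OX40 in the tumor (adjusted p = 0.000488, 4 of 4 mice) and by 0.65 ± 0.12 without that mouse (adjusted p = 0.000753). In the spleen it differed by 0.31 ± 0.17 (adjusted p = 0.407). Tumor exceeded spleen by 1.46 ± 0.16 in OX40plus (adjusted p = 7.51e-07, and 1.30 ± 0.13 without mouse 4) and by 0.96 ± 0.16 in OX40minus Tregs (adjusted p = 8.14e-05). A pseudogene, Txn-ps1, shares 6.95% of the 31-base words of Txn1.

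Srxn1 (chromosome 2, 152105516 to 152111376, plus strand) encodes sulfiredoxin. Its level was 4.47, 6.33 and 5.32 CPM in spleen OX40minus, 12.4, 9.42 and 12.8 in spleen OX40plus, 47.9, 50.4, 42.1 and 40.6 in tumor OX40minus, and 90.5, 74.0, 72.5 and 77.8 in tumor OX40plus Tregs. As for Mt2, the 4 groups were separate from each other. Srxn1 rose with OX40 by 0.80 ± 0.15 in the tumor (adjusted p = 0.000451, 4 of 4 mice) and by 1.10 ± 0.17 in the spleen (adjusted p = 0.000584, 3 of 3 mice), and the call held in each of the 22 alternatives run for either tissue. The interaction was -0.30 ± 0.22 (adjusted p = 0.437), and -0.29 ± 0.23 without mouse 4 of tumor OX40plus. Tumor exceeded spleen by 2.78 ± 0.16 in OX40plus (adjusted p = 3.36e-10), or 6.86-fold, and by 3.08 ± 0.16 in OX40minus Tregs (adjusted p = 1.42e-10), or 8.43-fold. Without mouse 4 the OX40 difference in the tumor was 0.80 ± 0.16 and the tissue difference in OX40plus Tregs 2.78 ± 0.17.

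Txnrd1 (chromosome 10, 82833951 to 82897712, plus strand) encodes cytosolic thioredoxin reductase, a selenoprotein. Its level was 87.8, 98.6 and 86.7 CPM in spleen OX40minus, 91.0, 95.2 and 78.7 in spleen OX40plus, 182, 187, 197 and 195 in tumor OX40minus, and 195, 204, 221 and 196 in tumor OX40plus Tregs. The gates overlapped in either tissue, and the tissues were far apart. The OX40 difference was 0.10 ± 0.08 in the tumor (adjusted p = 0.369) and -0.05 ± 0.09 in the spleen (adjusted p = 0.934). Tumor exceeded spleen by 1.21 ± 0.09 in OX40plus (adjusted p = 5.03e-09) and by 1.07 ± 0.09 in OX40minus Tregs (adjusted p = 3.1e-08). With mouse 4 of tumor OX40plus left out, the tumor OX40 difference was 0.12 ± 0.08 and the tissue difference in OX40plus 1.23 ± 0.09.

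Mt2 and Srxn1 were the members called higher with OX40 in both tissues, although the spleen call of Mt2 was lost in some alternatives. The promoters of the members were searched for short sequences as a description. Any link between these sequences and the calls was not tested. The 250 bases before each RefSeq start site (GRCm38.p6) were searched on both strands for TGACTCAGC and TGAGTCAGC, a form of the antioxidant response element bound by NRF2 with a small MAF protein, which contains the 7-letter AP-1 site TGACTCA or TGAGTCA. Of the members, 8 had a promoter entry, with 13 start sites, and Mt2 and Srxn1 held the motif. Gclc had no entry and could not be searched. It occurred in 0.706% of 32851 promoter windows. The stretches around it are shown, with the motif in capitals. Mt2 is chr8:94172514-94172572 on the plus strand, where the motif ends 71 bases before the start site. Srxn1 is chr2:152105454-152105512 on the plus strand, where it ends 37 bases before. This is a match of letters and no measurement of binding.
Mt2: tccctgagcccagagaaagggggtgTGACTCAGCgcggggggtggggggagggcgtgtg
Srxn1: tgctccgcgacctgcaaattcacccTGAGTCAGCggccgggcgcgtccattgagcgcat
The core of the metal response element, to which MTF1 binds, was searched as TGCACNC and TGCGCNC on both strands of the same windows, and 21.4% of windows held at least 1. Mt2 held 3 (1.26% of windows hold at least 3), Gclm held 2 (5.17% hold at least 2), and Mt1 and Srxn1 held 1 each. The RefSeq start of Mt2 (94172618) lies before the GENCODE gene, which begins at 94172664, and no GENCODE transcript of Mt2 holds its first bases. For Mt1 GENCODE annotates transcripts with other first bases too. These counts and the distances to the start site thus depend on the start site chosen, and bases outside the windows were not searched. MTF1 itself is encoded by Mtf1, whose level was 36.8 ± 2.34 CPM in spleen OX40plus (SD, n = 3) and 38.8 ± 1.24 in tumor OX40plus Tregs (SD, n = 4), a log2 difference of 0.08 ± 0.13 (adjusted p = 0.615).

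**Figure D2:**
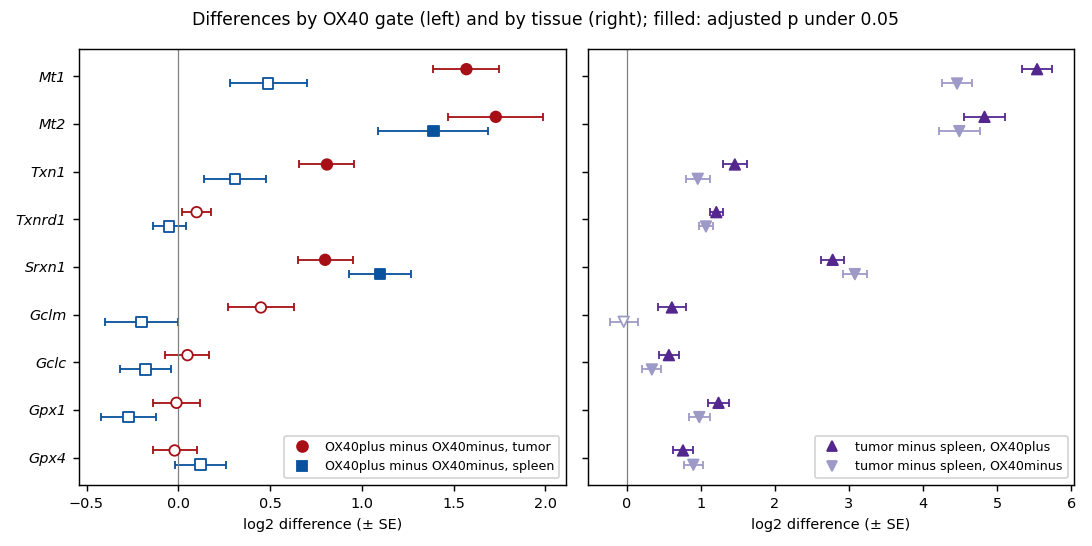
Log2 difference and SE of each gene between OX40 gates (left panel, tumor circles and spleen squares) and between tissues (right panel, OX40plus triangles pointing up and OX40minus triangles pointing down). Filled symbols are called in the fit without a block. Mt1 and Mt2 lie farthest to the right between tissues, at 4.46 to 5.54, and Txnrd1, Gclm, Gclc, Gpx1 and Gpx4 have open symbols in the left panel.

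Of the subunits of glutathione synthesis, neither was called between OX40 gates in the fit without a block. Gclm was called in the tumor with the mouse number as a replicate block. Both were higher in tumor than in spleen OX40plus Tregs. Gclc (chromosome 9, 77754535 to 77794485, plus strand) encodes the catalytic subunit of glutamate-cysteine ligase. Its level was 61.7, 59.7 and 63.5 CPM in spleen OX40minus, 61.9, 55.5 and 46.2 in spleen OX40plus, 82.7, 83.8, 67.8 and 78.1 in tumor OX40minus, and 71.5, 100.1, 75.2 and 77.4 in tumor OX40plus Tregs. Every tumor sample was above every spleen sample, and the gates overlapped in either tissue. The OX40 difference was 0.05 ± 0.12 in the tumor (adjusted p = 0.792) and -0.18 ± 0.14 in the spleen (adjusted p = 0.612). Tumor exceeded spleen by 0.57 ± 0.13 in OX40plus Tregs (adjusted p = 0.000982) and by 0.34 ± 0.13 in OX40minus Tregs (adjusted p = 0.0322). Leaving out mouse 4 of tumor OX40plus, the tumor OX40 difference was 0.06 ± 0.13 and the tissue difference in OX40plus 0.59 ± 0.14. The call in OX40minus Tregs was lost in 8 of 21 alternatives, namely scaling by relative log expression (adjusted p = 0.0569) or by library size alone (0.0587) and leaving out any 1 spleen OX40minus mouse (0.0577 to 0.0937) or mouse 1, 2 or 4 of tumor OX40minus (0.0555 to 0.0764).

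Gclm (chromosome 3, 122245557 to 122270732, plus strand) encodes the modifier subunit, which raises the activity of the ligase. Its level was 26.5, 31.3 and 22.3 CPM in spleen OX40minus, 22.5, 24.9 and 21.6 in spleen OX40plus, 17.6, 25.9, 29.3 and 32.4 in tumor OX40minus, and 32.7, 30.2, 36.1 and 42.0 in tumor OX40plus Tregs. The tumor OX40minus samples spanned the whole range of the spleens, and tumor OX40plus Tregs were the highest group, above all spleen OX40plus samples. In OX40plus Tregs tumor exceeded spleen by 0.61 ± 0.19 (adjusted p = 0.0109), or by 0.52 ± 0.20 without mouse 4 of tumor OX40plus (adjusted p = 0.0322), while in OX40minus Tregs the difference was -0.04 ± 0.19 (adjusted p = 0.862). The OX40 difference in the tumor was 0.45 ± 0.18 (adjusted p = 0.0569), higher in 4 of 4 mice, and in the spleen it was -0.20 ± 0.20 (adjusted p = 0.785), higher in 0 of 3 mice. With the mouse number as a replicate block the tumor difference was called (adjusted p = 0.0419, or 0.0323 with the mouse within tissue), as it was with limma-voom (0.0449), without mouse 4 of tumor OX40minus (0.028) and without mouse 2 of tumor OX40plus (0.0447). Without mouse 4 of tumor OX40plus it was 0.36 ± 0.18 (adjusted p = 0.148). The interaction was 0.65 ± 0.27 (adjusted p = 0.141), and 0.56 ± 0.27 without that mouse.

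The glutathione peroxidases and Txnrd1 carry selenocysteine, which is read from an in-frame TGA, elsewhere a stop codon. The bases around that codon are shown because these 3 members depend on selenium for their active site, and the TGA is in capitals. It is codon 47 of 201 in Gpx1-201, codon 73 of 197 in Gpx4-202 and codon 498 of 499 in Txnrd1-201, where it is the last codon but 1. The coding parts span chr9:108339313-108340136 (Gpx1), chr10:80053632-80056218 (Gpx4) and chr10:82874649-82896045 (Txnrd1), all on the plus strand of GRCm38, introns included.
Gpx1: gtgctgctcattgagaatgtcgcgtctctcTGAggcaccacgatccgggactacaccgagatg
Gpx4: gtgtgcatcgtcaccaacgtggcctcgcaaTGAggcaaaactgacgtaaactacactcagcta
Txnrd1: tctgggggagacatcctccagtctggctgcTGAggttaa

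Gpx1 (chromosome 9, 108338903 to 108340343, plus strand) encodes the cytosolic enzyme that reduces hydrogen peroxide, and Gpx4 (chromosome 10, 80047166 to 80056439, plus strand) the enzyme that reduces lipid hydroperoxides and protects against ferroptosis. Gpx1 was at 234, 192 and 166 CPM in spleen OX40minus, 150.2, 144 and 196 in spleen OX40plus, 365, 367, 434 and 378 in tumor OX40minus, and 338, 357, 378 and 467 in tumor OX40plus Tregs. Gpx4 was at 263, 209 and 192 CPM in spleen OX40minus, 230.2, 201 and 294 in spleen OX40plus, 419.9, 404, 423 and 397 in tumor OX40minus, and 426, 353, 374 and 481 in tumor OX40plus Tregs. For either gene all tumor samples lay above all spleen samples, and the gates overlapped within a tissue. Gpx1 was higher in the tumor by 1.24 ± 0.14 in OX40plus (adjusted p = 8.34e-07) and by 0.98 ± 0.14 in OX40minus Tregs (adjusted p = 1.46e-05). Gpx4 was higher by 0.76 ± 0.13 (adjusted p = 0.000111) and 0.90 ± 0.13 (adjusted p = 2.61e-05). With OX40 in the tumor Gpx1 differed by -0.01 ± 0.13 (adjusted p = 0.955) and Gpx4 by -0.02 ± 0.12 (adjusted p = 0.927), and in the spleen by -0.27 ± 0.15 (adjusted p = 0.394) and 0.12 ± 0.14 (adjusted p = 0.84). Without mouse 4 of tumor OX40plus, Gpx1 differed by -0.11 ± 0.12 and Gpx4 by -0.10 ± 0.12 with OX40 in the tumor, and tumor exceeded spleen in OX40plus Tregs by 1.14 ± 0.13 and 0.68 ± 0.13. Of the 31-base words of Gpx4 transcripts, 55.5% occur in the pseudogenes Gpx4-ps2 and AC122253.3, so that its level is uncertain, whereas none of Gpx1, Gclc or Txnrd1 occurs elsewhere.

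Per kilobase of transcript, the order of the members differed between tissues. In spleen OX40minus Tregs the mean level per kilobase was 251 CPM for Gpx1, 231 for Gpx4, 92.0 for Txn1, 26.6 for Txnrd1, 18.0 for Gclc, 8.09 for Gclm, 6.15 for Mt1, 1.91 for Srxn1 and 1.59 for Mt2. In tumor OX40plus Tregs it was 489 for Gpx1, 426 for Gpx4, 402 for Mt1, 316 for Txn1, 119 for Mt2, 59.4 for Txnrd1, 28.0 for Srxn1, 23.7 for Gclc and 10.7 for Gclm. Mt1 thus stood below Gclm in spleen OX40minus and beside the glutathione peroxidases in tumor OX40plus Tregs. In spleen OX40plus Tregs its mean was above that of Gclm, at 8.56 against 6.98, but the sample ranges of these genes overlapped there. In tumor OX40minus Tregs Mt1 was at 135 against 490.2 for Gpx1 and 428 for Gpx4. In spleen OX40minus Tregs the sample ranges overlapped between Gpx1 and Gpx4, Gclm and Mt1, and Srxn1 and Mt2, and in tumor OX40plus Tregs among Gpx1, Gpx4, Mt1 and Txn1 and between Srxn1 and Gclc. The lengths are medians of the annotated coding transcripts, so the order of neighbours is approximate.

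Over the 14 samples, which differ in tissue and gate, Mt1 and Mt2 correlated at 0.99 (Pearson's r of log2 CPM). After the group means were taken out, r was 0.74 for this pair, 0.84 for Gpx1 with Gpx4, 0.84 for Txn1 with Gpx1, 0.74 for Mt1 with Txn1 and -0.64 for Txnrd1 with Gpx4. These values describe 14 samples that share libraries and depth between genes. The genes whose levels ran most like each member over the samples were Eif4e, Hccs and Glipr1 for Mt1 (r = 0.995 each), and Slbp (0.991), Srxn1 (0.99) and Fabp5 (0.989) for Mt2. For Txn1 they were Uqcc2, Atp5g3 (0.994 each) and Ndufa12 (0.993), for Srxn1 Fuca2 (0.993), Odc1 (0.991) and Slc16a3 (0.99), and for Txnrd1 Ube2g1 (0.991), Nipa2 (0.99) and Sppl2a (0.989). Gpx1 ran most like B2m (0.995), Ostf1 (0.992) and Arpc3 (0.991), and Gpx4 like Vamp8, Lime1 (0.982 each) and S100a13 (0.98). The likeness was lower for Gclc, with Slc35b4 (0.936), Washc5 (0.921) and Klhl5 (0.901), and for Gclm, with Ppp1cb (0.846), Nt5c3 (0.834) and Vps50 (0.83). These genes came from 8032 with a mean of at least 10 CPM.

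**Figure D3:**
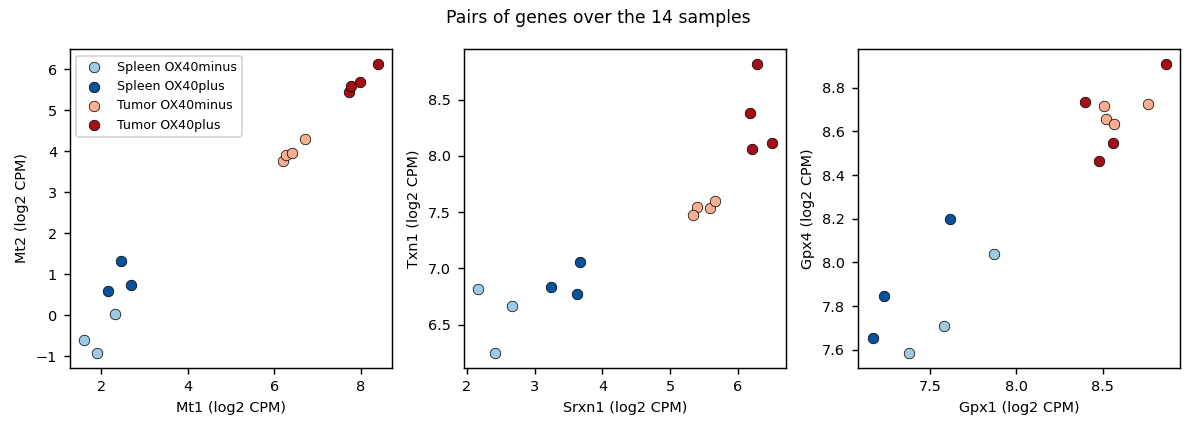
Levels of 3 pairs of genes against each other in log2 CPM, with each point a sample coloured by group. Mt1 and Mt2 line up over all 14 samples (r = 0.99), Srxn1 and Txn1 separate the tumor gates, and Gpx1 and Gpx4 form a spleen and a tumor cloud in which the gates mix.

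Among the other genes of zinc and copper handling, 21 were tested and 7 were called higher and 1 lower with OX40 in the tumor (median 0.23), where 18.6% of all genes were called higher and 20.0% lower (median -0.07). In the spleen 2 were higher and 0 lower (median -0.08), beside 4.39% and 3.60% of all genes (median 0.01). In the tumor against the spleen 10 were higher and 4 lower in OX40plus (median 0.46), beside 30.3% and 34.2% of all genes (median -0.13), and 7 higher and 3 lower in OX40minus Tregs (median -0.01), beside 29.7% and 29.3% (median -0.03). Mt3 went from 0.256 ± 0.135 CPM in spleen OX40minus (SD, n = 3) and 0.686 ± 0.046 in spleen OX40plus (SD, n = 3) to 16.0 ± 2.29 in tumor OX40minus (SD, n = 4) and 37.1 ± 10.7 in tumor OX40plus Tregs (SD, n = 4). Its OX40 difference was 1.18 ± 0.29 in the tumor (adjusted p = 0.00468) and 1.00 ± 0.31 there without mouse 4 of OX40plus, and tumor exceeded spleen by 5.76 ± 0.32 in OX40plus Tregs (adjusted p = 2.54e-10). In the spleen Mt3 rested on 4 to 10 estimated counts per OX40minus and 16 to 18 per OX40plus sample. Its OX40 difference there was 1.26 ± 0.34 (adjusted p = 0.0292). That call was lost in 9 of 22 alternatives run after its values were seen, among them limma-voom (adjusted p = 0.557), a pseudocount of 1 CPM (0.398), the spleen groups alone (0.0827), the mouse within tissue as a replicate block (0.0579), leaving out mouse 1 (0.1) or 3 (0.133) of OX40minus and leaving out any 1 mouse of OX40plus (0.0715 to 0.0822). Slc39a1, which encodes the zinc importer ZIP1, went the other way and fell by 4.07 ± 0.16 from spleen to tumor in OX40plus Tregs (adjusted p = 5.96e-12), with 77.3 to 78.7 CPM in spleen and 3.95 to 5.60 in tumor samples. Slc30a1, another zinc transporter gene of the list, was also lower in tumors, opposite in direction to Mt1 and Mt2. Its mean was 38.7 CPM in spleen OX40minus, 27.5 in spleen OX40plus, 7.73 in tumor OX40minus and 6.21 in tumor OX40plus Tregs. Any part of zinc or MTF1 in these levels was not tested. Slc39a4, for the importer ZIP4, rose with OX40 in the spleen by 1.02 ± 0.12 (adjusted p = 5.91e-05). The copper importer gene Slc31a1 rose in the tumor OX40 comparison by 0.57 ± 0.14 (adjusted p = 0.00476) and between tissues in OX40plus Tregs by 2.08 ± 0.15 (adjusted p = 7.38e-09), and Slc30a5, for a zinc transporter of the secretory pathway, rose by 0.41 ± 0.08 in the tumor OX40 comparison (adjusted p = 0.000947).

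Of 21 further genes of the thioredoxin system, 7 were higher and 4 lower with OX40 in the tumor (median 0.16; 18.6% and 20.0% of all genes), and 0 higher and 1 lower in the spleen (median 0.03; 4.39% and 3.60%). Between tissues 12 were higher and 6 lower in OX40plus (median 0.53; 30.3% and 34.2% of all genes), and 9 higher and 6 lower in OX40minus Tregs (median 0.24; 29.7% and 29.3%). Txnip, which encodes the protein that binds and inhibits thioredoxin, fell with OX40 in both tissues. It was at 863 ± 42.2 CPM in spleen OX40minus (SD, n = 3), 529 ± 21.6 in spleen OX40plus (SD, n = 3), 404 ± 35.9 in tumor OX40minus (SD, n = 4) and 131 ± 15.5 in tumor OX40plus Tregs (SD, n = 4). It fell by 1.63 ± 0.09 with OX40 in the tumor (adjusted p = 6.37e-09) and by 0.71 ± 0.11 in the spleen (adjusted p = 0.000443), and the interaction of -0.92 ± 0.14 was called (adjusted p = 0.000772). Prdx4, a peroxiredoxin of the endoplasmic reticulum, rose by 0.85 ± 0.13 in the tumor OX40 comparison (adjusted p = 8.79e-05), and Sesn1, a stress-induced sestrin, fell by 0.86 ± 0.11 (adjusted p = 1.69e-05). Glrx, for the glutathione-dependent glutaredoxin, rose from 218 ± 6.81 CPM in spleen OX40plus (SD, n = 3) to 1391 ± 97.4 in tumor OX40plus Tregs (SD, n = 4), by 2.67 ± 0.09 (adjusted p = 1.33e-12).

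Of 25 further genes of glutathione synthesis and use, 6 were higher and 2 lower with OX40 in the tumor (median 0.21), beside 18.6% and 20.0% of all genes, and 2 higher and 0 lower in the spleen (median 0.17), beside 4.39% and 3.60%. Between tissues 10 were higher and 8 lower in OX40plus (median 0.19), beside 30.3% and 34.2% of all genes, and 9 higher and 7 lower in OX40minus Tregs (median 0.34), beside 29.7% and 29.3%. In the tumor OX40 comparison Gsto1, an omega-class glutathione transferase, rose by 1.04 ± 0.12 (adjusted p = 5.46e-06), Slc25a39, the mitochondrial glutathione importer, by 0.54 ± 0.12 (adjusted p = 0.0019), and Mgst2, a microsomal transferase, fell by 0.60 ± 0.09 (adjusted p = 0.000102). Gsr, for the reductase that regenerates glutathione, was 1.48 ± 0.10 higher in tumor than in spleen OX40plus Tregs (adjusted p = 3.58e-09) and 0.97 ± 0.10 higher in OX40minus Tregs (adjusted p = 6.13e-07). In the spleen OX40 comparison Ggt7 rose by 1.16 ± 0.27 (adjusted p = 0.0121) and Gstt2 by 0.50 ± 0.13 (adjusted p = 0.0258).

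A list of 24 tested genes held NRF2 itself, regulators such as Keap1, Bach1 and Bach2, and targets, without the members. Its counts therefore mix regulators with targets and are no measure of NRF2 activity. Of the 24, 3 were higher and 9 lower with OX40 in the tumor (median -0.16), beside 18.6% and 20.0% of all genes. In the spleen 0 were higher and 5 lower (median -0.21), beside 4.39% and 3.60%. Between tissues 11 were higher and 9 lower in OX40plus (median 0.26), beside 30.3% and 34.2%, and 7 higher and 8 lower in OX40minus Tregs (median 0.07), beside 29.7% and 29.3%. Nfe2l2, which encodes NRF2, fell by 0.51 ± 0.11 in the tumor (adjusted p = 0.00179), from 46.0 ± 4.63 to 32.4 ± 3.99 CPM (SD, n = 4 each). Bach2, for a repressor of the same family that is high in resting lymphocytes, fell by 2.33 ± 0.29 in the tumor (adjusted p = 1.42e-05), and Osgin1, an oxidative stress-induced gene, fell by 1.81 ± 0.24 (adjusted p = 2.42e-05). In the spleen Hmox1, for heme oxygenase, fell by 3.22 ± 0.20 with OX40 (adjusted p = 8.08e-08), from 137 ± 23.0 to 14.7 ± 2.45 CPM (SD, n = 3 each), Idh1 fell by 1.21 ± 0.18 (adjusted p = 0.000481) and Ftl1, a ferritin light chain, by 0.77 ± 0.14 (adjusted p = 0.00259). Hmox1 is also a gene of the macrophage list, of which 12 of 13 genes were called lower in the same comparison (median -3.22). The part of macrophage RNA in the falls of Hmox1, Idh1 and Ftl1 was not tested. With OX40 in the tumor 11 of the 13 were called lower (median -1.91). Their part in the falls of Nfe2l2, Bach2 and Osgin1 there was not tested either.

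Of 15 genes of selenoprotein synthesis and other selenoproteins, 6 were higher and 2 lower with OX40 in the tumor (median 0.19), beside 18.6% and 20.0% of all genes, and 0 higher and 1 lower in the spleen (median 0.03), beside 4.39% and 3.60%. Between tissues 7 were higher and 4 lower in OX40plus (median 0.44), beside 30.3% and 34.2%, and 5 higher and 2 lower in OX40minus Tregs (median 0.22), beside 29.7% and 29.3%. Sephs2, for the enzyme that makes selenophosphate, rose by 0.78 ± 0.08 with OX40 in the tumor (adjusted p = 1.66e-06) and was 1.43 ± 0.08 higher in tumor than in spleen OX40plus Tregs (adjusted p = 4.67e-10). Its paralog Sephs1 rose by 0.64 ± 0.08 in the tumor OX40 comparison (adjusted p = 2.16e-05), and Selenop, for the secreted selenium carrier, fell by 1.32 ± 0.08 (adjusted p = 2.84e-08), in the same direction as the macrophage genes. A last list held 9 other genes of antioxidant defence or of the response to oxidative stress. Of these, 2 were higher and 0 lower with OX40 in the tumor (median -0.07), and 1 higher and 0 lower in the spleen (median 0.08). Between tissues 5 were higher and 0 lower in OX40plus (median 0.39), and 6 higher and 0 lower in OX40minus Tregs (median 0.85). The same shares of all genes apply to this list. Oxsr1, which encodes a kinase responsive to osmotic and oxidative stress and no antioxidant enzyme, rose by 1.72 ± 0.12 in the tumor OX40 comparison (adjusted p = 7.25e-08). Park7, for the redox-sensitive protein DJ-1, rose by 0.59 ± 0.11 (adjusted p = 0.000789).

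**Figure D4:**
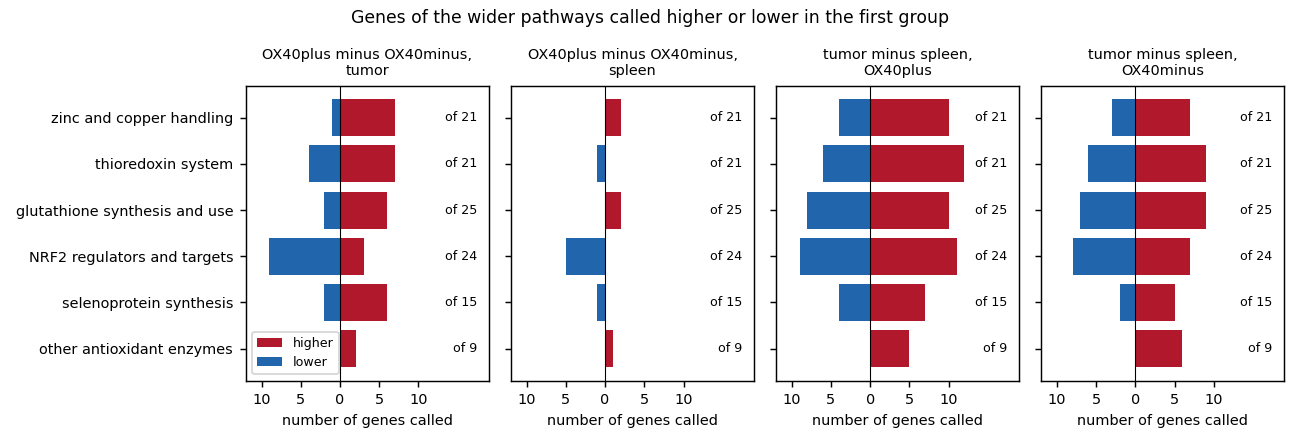
Number of genes called higher (bars to the right) or lower (bars to the left) in each of the 6 wider gene lists, by comparison, with the number tested at the right. The NRF2 list, which mixes regulators with targets, has 9 genes lower against 3 higher with OX40 in the tumor. The thioredoxin list has 7 higher against 4 lower there, where 20.0% of all genes were lower and 18.6% higher.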

How the data were processed

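The authors deposited log2 CPM of 13103 genes in 28 libraries, named by mouse, tissue and gate. The submitters' processing notes name build mm10 and the tools bcl2fastq 2.19, kallisto and limma. No source used here gives the gene summary, the scaling or the strand setting. The deposited log2 values have the voom form, 0.5 added to each count: in each library 451 to 1322 genes share the lowest value. Inverting the formula gave estimated counts, of which 46.6% to 51.2% were whole within 0.01, against 0.885% to 1.29% with a 10% larger library size. The 2 libraries of a mouse and gate differed by about sampling noise (median chi-square per gene 0.495 to 0.578, 0.455 by sampling alone, 1.42 to 13.0 between mice) and were averaged and counted as 1 sample.

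All 14 samples entered limma 3.58.1 (R 4.3.3; eBayes with trend) without a block, on genes with at least 0.382 CPM in 3 samples and 15 counts in total. Adjusted p-values are Benjamini-Hochberg over 12512 genes. The titles give the same mouse numbers to the gates of a tissue, so these pair samples; deviations of same-numbered samples from their group means correlated at -0.162 to 0.112. On simulated data for the tumor OX40 comparison (12512 genes) 94% of genes changed by 1 on the log2 scale and 100% of those changed by 2 were called, with 10 false calls. The simulation gave every gene the same relative spread between samples and changed few genes, all above 1 CPM. It checks the fit and does not measure the power in the real data. Alternatives were other scaling, no filter, a pseudocount of 1 CPM, limma-voom, the 2 groups alone, replicate blocks and leaving out each sample. The members and lists were chosen with earlier results of these data known. From each list up to 3 called genes with the smallest adjusted p per comparison could be named, and for each member the 3 genes most correlated with it. Mtf1 and Slc30a1 were named outside this rule, Slc30a1 after its values were seen. Sequences are from GENCODE M21 transcripts (GRCm38) and RefSeq promoters (GRCm38.p6). Floors cover counting error only.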

Additional observations from a re-analysis of the deposited data

Results flagged for a closer look

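The OX40 difference of Mt1 differed between tissues: it was larger in the tumor than in the spleen by 1.08 on the log2 scale (limma interaction, adjusted p = 0.0216). In the tumor OX40plus Tregs were higher in 4 of 4 mice and in the spleen in 2 of 3. Over the 21 alternatives the difference ranged from 0.89 to 1.24, and it was called in 17. An outlier rule was run for the 9 genes in the tumor groups of 4 mice (18 groups examined). It flags a sample whose gap to the next one exceeds 0.829 of the range of its group (Dixon's ratio). No sample was flagged, but with 4 mice only a very distant value can be, so deviating samples are not excluded. Mouse 4 of tumor OX40plus was the highest of its group for Mt1, Mt2, Txn1, Gclm, Gpx1 and Gpx4. Spleen groups of 3 were not examined by this rule.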

How the results depend on the processing

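The 4 members called with OX40 in the tumor were 4 or 5 under every alternative, 4 to 5 when each mouse was left out, and 5 with a replicate block, where Gclm joined them. In the spleen 2 members were called, and 1 with a pseudocount of 1 CPM or with limma-voom, in which Mt2 was lost. Between tissues the counts were 9 in every alternative for OX40plus and 7 or 8 for OX40minus Tregs, where Gclc was the gene lost. The interaction was called for 1 member, and for 0 with limma-voom and with a replicate block within tissue, and 0 to 1 when each mouse was left out. Of 963 values of single members under alternatives, 929 kept direction and side of the threshold, 14 lost their call, 5 gained it and 15 changed sign. All 15 belonged to differences that were not called. In the tumor OX40 comparison these were Gclc (-0.06 to 0.10 when each mouse was left out), Gpx1 (0.01 with relative log expression factors, -0.11 to 0.05 without a mouse) and Gpx4 (0.00 with relative log expression factors, -0.10 to 0.05 without a mouse). In the spleen they were Txnrd1 (-0.10 to 0.03 without a mouse) and Gpx4 (-0.03 to 0.25), between tissues in OX40minus Tregs Gclm (-0.17 to 0.14), and in the interaction Gpx4 (-0.27 to 0.01). The cause was not tested. Among the members the replicate block changed no other call than those of Gclm in the tumor and, within tissue, of Mt1 in the interaction. The block within tissue also lost the spleen call of Mt3, which is no member. Depth limits Mt2 in spleens, which rested on 13 to 62 estimated counts per sample, and Mt3, with 4 to 18, whose spleen call was lost in 9 of 22 alternatives.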
